A study of Mus musculus with 4 samples.

Results

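The Ataxin-2 proteins and the stress granule factors described here are 10 genes of mouse HT22 cells, taken by name from a table of 16846 genes. They are Atxn2 and Atxn2l, the granule scaffold and its partners G3bp1, G3bp2, Caprin1 and Usp10, the RNA-binding proteins Tia1 and Tial1, the poly(A)-binding protein gene Pabpc1 and the helicase gene Ddx6. Of the genes, 8 were chosen by their known roles, with earlier results of these data known. Atxn2 and Atxn2l were chosen by their measured values, a low log2 ratio of Ntoco-overexpressing cells over their vector control. That comparison is therefore given as a description of all 10 genes, with no test. All 10 had a row in the table and all 10 passed the filter on low counts.

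HT22 is an immortalised line derived from mouse hippocampal neurons, and the study lowered or raised the long noncoding RNA Ntoco in it. The groups were cells with a construct carrying Ntoco (Lv-Ntoco), cells with the empty vector (Vector), cells with a short hairpin RNA (shRNA) against Ntoco (sh-Ntoco) and cells with a control shRNA (sh-Ctrl). The titles number the cells HT25, HT24, HT23 and HT22 in that order, although every sample is labelled as the HT22 line. The columns of the table use the plasmid name pcDNA while the label of the overexpressing cells says Lv, so how Ntoco was delivered is uncertain. Whether Lv-Ntoco and Vector cells carried the same vector is uncertain too. If they did not, Ntoco and delivery cannot be told apart between them. Whether a group is a single clone, and the time after delivery, were not stated in the labels. Each group is 1 sample in the labels but 2 numbered libraries in the table, with no statement that they came from separate cultures. The p-values therefore measure the spread between these libraries, which may be technical.

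The 8 libraries held 18452588 to 19859041 counts and 12115 genes were tested. Within a group, the libraries showed a mean chi-square of 62.1 to 156 per gene, far above counting noise, so each was used separately. No row was named Ntoco (0 rows), so the level of the targeted RNA could not be read and the group labels were not checked by it. Of 14 neuronal markers, 8 had a row and 2, Dlg4 and Camk2a, passed the filter. The cytoskeletal marker Map2 had at most 1 count in a library and Tubb3 at most 2, whereas the collagen gene Col1a2 had 19510 to 69393 counts. Most defining markers of neurons were thus absent or near 0 in this line of neuronal origin.

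Stress granules are assemblies of messenger RNA and protein that form when the start of translation stalls, commonly after phosphorylation of the initiation factor eIF2alpha. G3BP proteins nucleate them, Caprin1 binds G3BP and favours assembly, and Usp10 competes for G3BP and opposes it. Ataxin-2 proteins bind the poly(A)-binding protein and the helicase DDX6 and are recruited to the granules, and an expanded glutamine repeat in human ataxin-2 causes a spinocerebellar ataxia. DDX6 is also a core component of P-bodies, the sites associated with mRNA decapping and repression.

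The promoter windows of Atxn2 and Atxn2l are shown because this pair of related genes was low together in Lv-Ntoco cells. Each holds 250 bases before the most upstream start that the RefSeq promoter table lists for the gene on GRCm38.p6, written 5′ to 3′ on the strand of the gene. For Atxn2l, and for G3bp1, Caprin1, Tia1 and Tial1 described below, that start lies inside the span RefSeq gives for the gene. Capitals mark matches to the motifs searched.
Atxn2 (chr5:121711359-121711608, plus strand): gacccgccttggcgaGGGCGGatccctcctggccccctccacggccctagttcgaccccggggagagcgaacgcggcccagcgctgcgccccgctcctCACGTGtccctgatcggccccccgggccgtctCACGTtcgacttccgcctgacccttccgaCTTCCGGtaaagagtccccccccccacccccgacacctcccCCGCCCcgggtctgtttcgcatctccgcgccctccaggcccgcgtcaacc
Atxn2l (chr7:126503438-126503687, minus strand): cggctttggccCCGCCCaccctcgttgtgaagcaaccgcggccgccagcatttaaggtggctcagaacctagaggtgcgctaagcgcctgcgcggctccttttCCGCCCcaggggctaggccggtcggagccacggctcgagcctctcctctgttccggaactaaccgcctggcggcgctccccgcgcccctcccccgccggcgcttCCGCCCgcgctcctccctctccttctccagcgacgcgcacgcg
The motifs, searched on both strands, were the GC box GGGCGG, the ETS core CCGGAAG, the E-box CACGTG, the hypoxia response core ACGTG, the CCAAT box CCAAT, the TATA box TATAAA, the NF-kB consensus and the cAMP response core TGACGT. An E-box always contains the hypoxia response core on both strands. The GC box was found 2 times before Atxn2, 3 times before Atxn2l, 1 time before G3bp1 and 4 times before Caprin1, where 2 of the matches overlap, and it occurs in 32.7% of all 32817 windows of this length. The Atxn2 window also held 1 ETS core (6.9% of windows), 1 E-box (6.02%) and 3 hypoxia response cores (16.6%), of which 2 lie in the E-box. The Atxn2l window held none of these. G3bp1 had 3 CCAAT boxes (33.8% of windows) and 1 TATA box (12.4%), the latter at -247 from the start and on the other strand. The NF-kB consensus, present in 1.21% of windows, and the cAMP response core, present in 6.46%, were in 0 of the windows of the 8 genes that had one. GC content was 73.2% for Atxn2, 71.6% for Atxn2l, 62% for G3bp1 and 78% for Caprin1, and over the 8 windows it ran from 44% for Tia1 and 46.4% for Usp10 to 78%, against a median of 52.4% over all windows. A match describes the letters of these windows and is not a binding site. Of the other genes, G3bp2 and Tial1 had 2 hypoxia response cores each and Tial1 also had 2 GC boxes. The windows of Usp10 and Tia1 held no match to any of the motifs (0 matches each). Pabpc1 and Ddx6 are named only.

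Levels are compared between genes as FPKM, counts of fragments relative to gene length and sequencing depth, as the authors deposited them. Pabpc1 was the most abundant, with a median over the 8 libraries of 793 FPKM (range 666 to 844), above 99.6% of the tested genes. G3bp1 followed with 119 FPKM (95.1 to 135) and Caprin1 with 96.6 FPKM (70.3 to 115). The ranges of G3bp1 and Caprin1 overlapped, and both lay far below Pabpc1. Atxn2l had a median of 54.1 FPKM (40.5 to 74.4), G3bp2 34.8 FPKM (31.2 to 41.4) and Usp10 29.0 FPKM (25.4 to 43.4). Ddx6 had 21.0 FPKM (16.9 to 36.7) and Tial1 14.8 FPKM (12.4 to 16.7). Atxn2, at 7.68 FPKM (5.31 to 12.2), and Tia1, at 6.51 FPKM (5.38 to 8.86), were the lowest, and their ranges overlapped. Of the 10 genes, Atxn2 had the widest range, 2.29-fold between its lowest and its highest library, and Pabpc1 the narrowest, 1.27-fold.

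**Figure D1:**
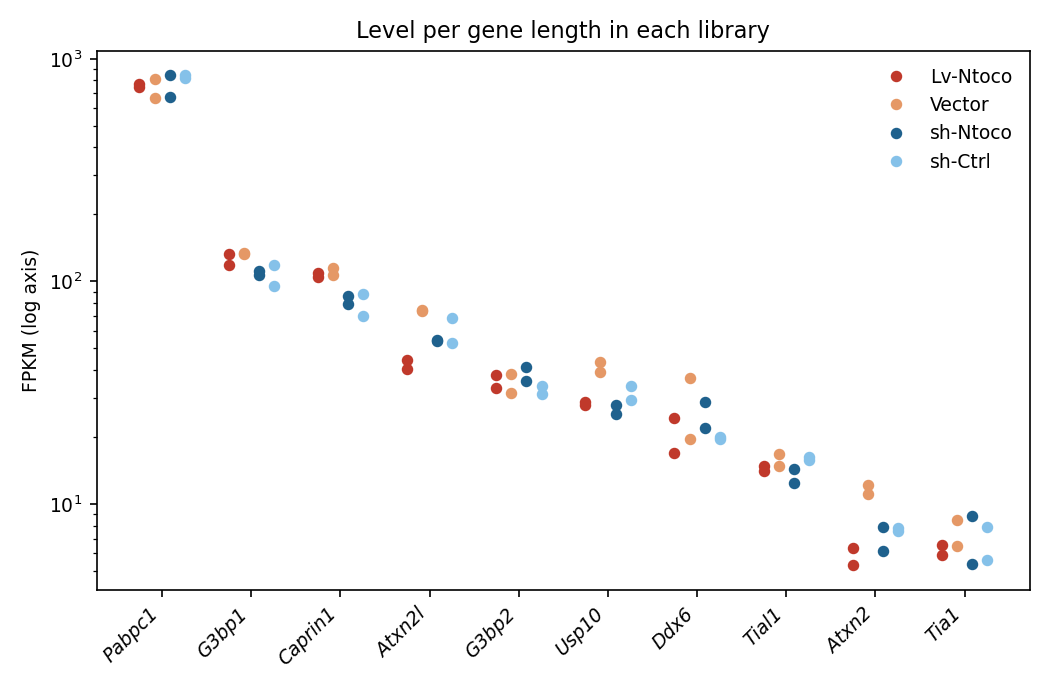
Deposited FPKM (log axis) of the 10 genes, ordered by median, with 1 point per library and colours for the 4 groups. Pabpc1 lies between 666 and 844 FPKM and Atxn2 and Tia1 lie lowest, while the groups separate most clearly for Atxn2, where both Vector points stand above all others.

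Within the related pairs, 1 gene always dominated. Atxn2 made up 11.6% and 12.5% of the summed Atxn2 and Atxn2l FPKM in the Lv-Ntoco libraries, against 14.2% and 13.0% in the Vector libraries. The share was 10.3% and 12.7% in sh-Ntoco and 12.5% and 10.2% in sh-Ctrl. Atxn2l was thus the larger contributor in every library, and the share of Atxn2 was slightly lower in both Lv-Ntoco libraries than in both Vector libraries, while the sh-Ntoco and sh-Ctrl shares overlapped. G3bp1 held 72.8% to 81.1% of the G3bp1 and G3bp2 sum over the 8 libraries. Tia1 held 26.1% to 38.2% of the Tia1 and Tial1 sum.

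**Figure D2:**
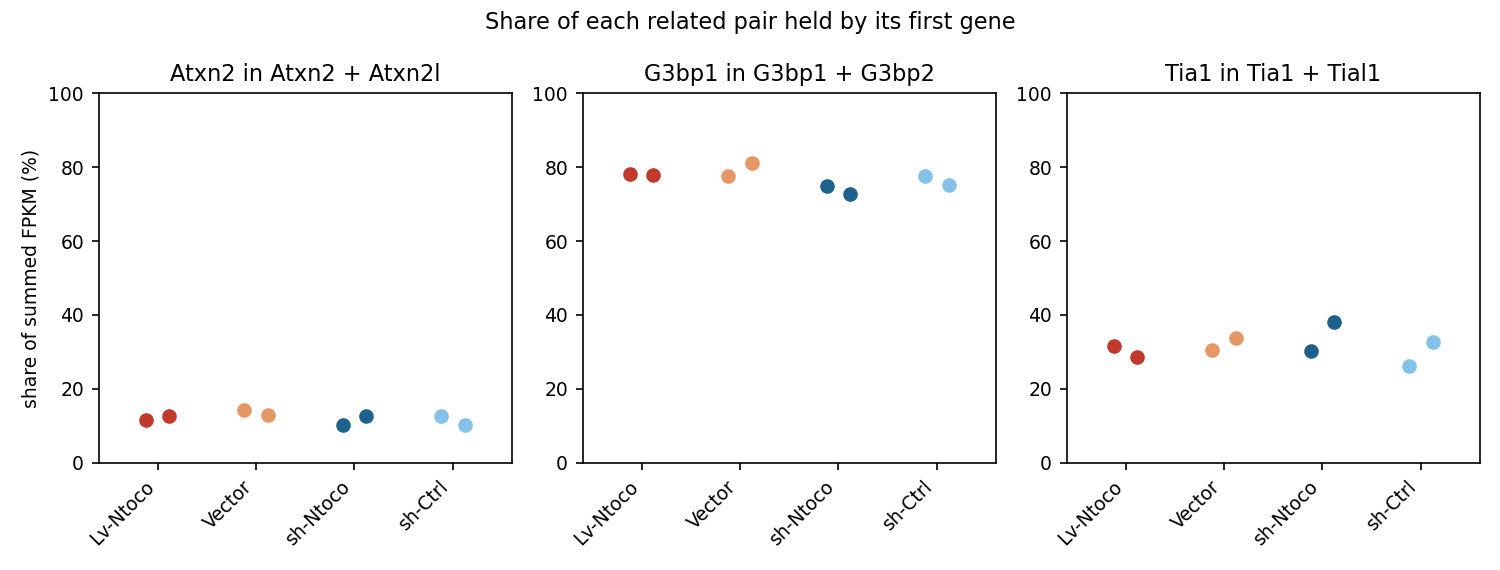
Share (%) of the summed FPKM of each related pair held by Atxn2, G3bp1 or Tia1, with 1 point per library in 4 groups. The Atxn2 share stays between 10.2% and 14.2%, and G3bp1 is the main form of its pair in every library.

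For comparisons between groups, counts were scaled to library size with TMM factors (CPM values), and log2 ratios came from an edgeR model of all tested genes. In RNA from bulk cultures, fewer cells that express a gene and less of its RNA per cell cannot be told apart.

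Atxn2, which encodes the RNA-binding protein ataxin-2 (Entrez Gene 20239, GRCm38 chromosome 5, 121711609 to 121814950, plus strand), had 52.2 and 62.0 CPM in the Lv-Ntoco libraries, against 123 and 108 CPM in the Vector libraries. It had 58.0 and 72.6 CPM in the sh-Ntoco libraries, against 73.2 and 72.2 CPM in the sh-Ctrl libraries. Vector stood alone at the top, with both libraries above the other 6. The Lv-Ntoco and sh-Ntoco values overlapped, as did those of sh-Ntoco and sh-Ctrl. The fitted log2 ratio was -1.02 (SE 0.20) for Lv-Ntoco against Vector, a fold of 0.495. For sh-Ntoco against sh-Ctrl it was -0.15 (SE 0.20), with a 95% interval of -0.61 to 0.30 and an adjusted p of 0.992 in edgeR's quasi-likelihood test. Exons of Atxn2 overlap those of Sh2b3 on the other strand over 99 of 15689 bp.

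Vector and sh-Ctrl are both controls without altered Ntoco, and they differ in construct. Atxn2 averaged 115 ± 10.2 CPM in Vector and 72.7 ± 0.679 CPM in sh-Ctrl (SD, n = 2 each). Its log2 ratio was 0.67 (SE 0.20, 95% interval 0.21 to 1.12), and the adjusted p of edgeR was 0.350, above the threshold of 0.05. The Vector libraries also entered the comparison by which Atxn2 was chosen, so a high Vector level is shared by both ratios. Set directly beside sh-Ctrl, Lv-Ntoco had 57.1 ± 6.87 CPM against 72.7 ± 0.679 CPM (SD, n = 2 each), with both Lv-Ntoco libraries below both sh-Ctrl libraries. The Lv-Ntoco libraries entered the choice of Atxn2 as well, so this order is a description and nothing is read from it. The share of all genes with the same order was not counted.

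Atxn2l, the paralogue of Atxn2 (Entrez Gene 233871, chromosome 7, 126491708 to 126507819, minus strand), had 194 and 211 CPM in the Lv-Ntoco libraries, against 362 and 353 CPM in the Vector libraries. In the sh-Ntoco libraries it had 248 and 244 CPM, against 249.99 and 311 CPM in the sh-Ctrl libraries. Both Vector libraries were the highest and both Lv-Ntoco libraries the lowest of the 8. The sh-Ntoco and sh-Ctrl values did not overlap in CPM but did in FPKM, where sh-Ntoco had 53.9 and 54.3 and sh-Ctrl 53.0 and 68.5. The log2 ratio was -0.82 (SE 0.18) for Lv-Ntoco against Vector. It was -0.19 (SE 0.18, 95% interval -0.60 to 0.22, adjusted p = 0.992 in edgeR) for sh-Ntoco against sh-Ctrl and 0.35 (SE 0.18, 95% interval -0.06 to 0.76, adjusted p = 0.434 in edgeR) for Vector against sh-Ctrl. The Vector libraries entered the choice of Atxn2l too, so this last test is not independent of it.

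**Figure D3:**
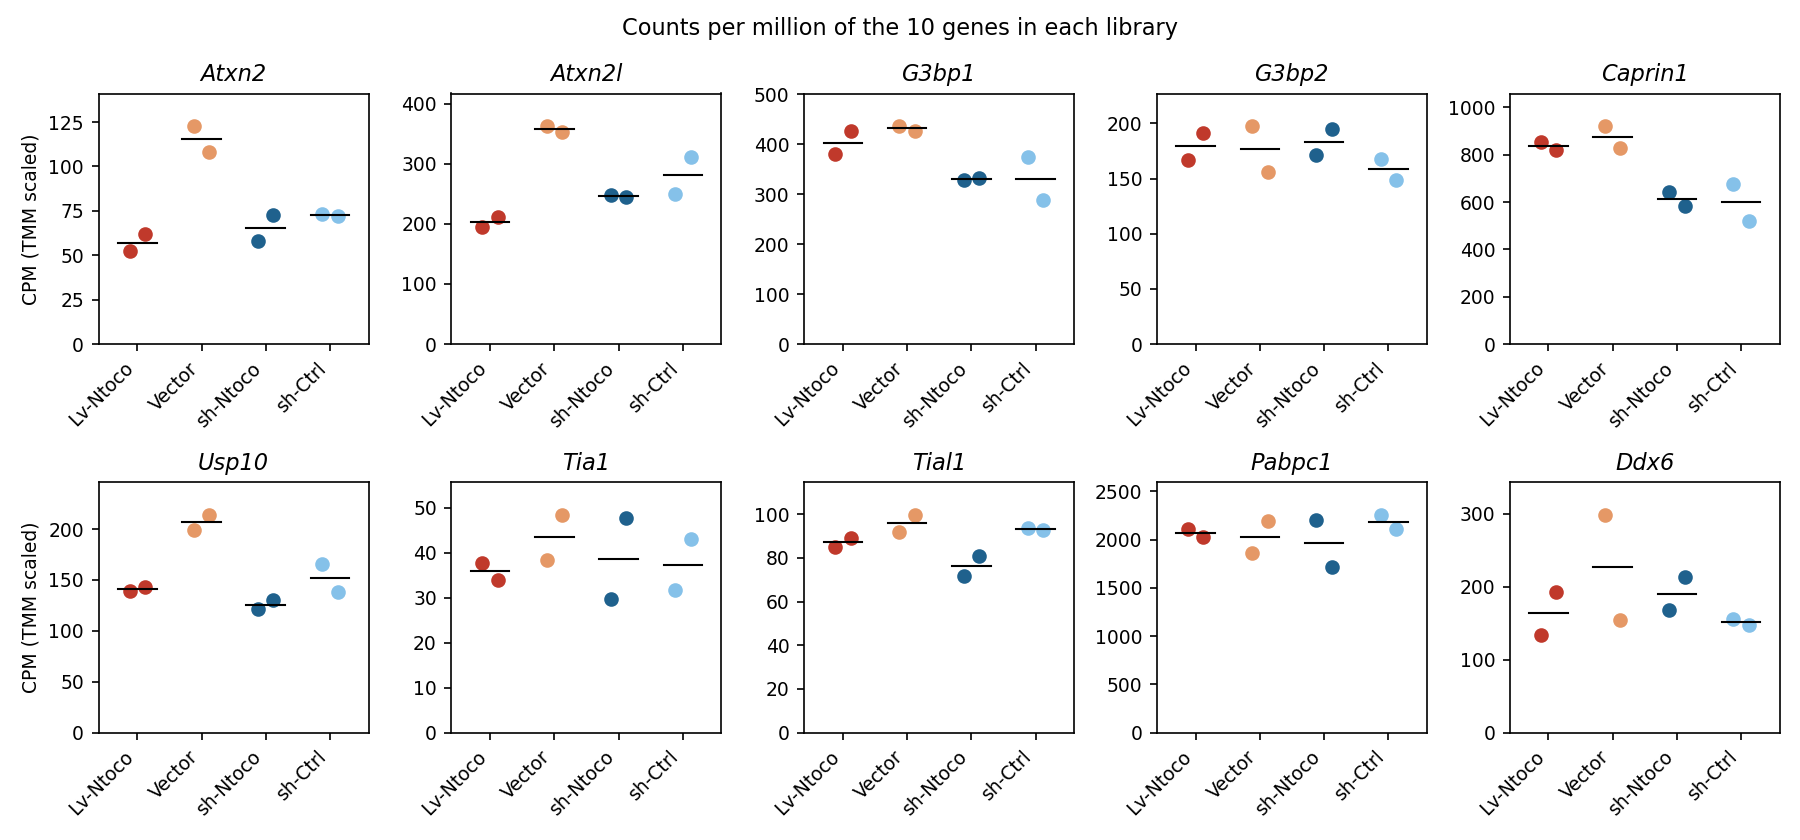
CPM of each of the 10 genes in every library (points) with the mean of each group (line), each panel with its own axis from 0. Both Vector libraries exceed all others for Atxn2, Atxn2l and Usp10, whereas G3bp1 and Caprin1 are high in Lv-Ntoco as well as in Vector. The share of all genes with both Vector libraries above all others was not counted.

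G3bp1 and Caprin1 showed another arrangement. G3bp1 (Entrez Gene 27041, chromosome 11, 55469657 to 55500888, plus strand) had 381 and 426 CPM in the Lv-Ntoco libraries, against 436 and 428 CPM in the Vector libraries. It had 329 and 333 CPM in sh-Ntoco, against 375 and 289 CPM in sh-Ctrl. In CPM all 4 Lv-Ntoco and Vector libraries lay above all 4 libraries with an shRNA. In FPKM this separation was lost, with 118.7 in Lv-Ntoco library 1 and 118.9 in sh-Ctrl library 1. The sh-Ntoco values lay between those of sh-Ctrl. The log2 ratio was -0.10 (SE 0.19) for Lv-Ntoco against Vector and -0.0015 (SE 0.19, 95% interval -0.43 to 0.43) for sh-Ntoco against sh-Ctrl. For Vector against sh-Ctrl it was 0.38 (SE 0.19, 95% interval -0.05 to 0.82, adjusted p = 0.425 in edgeR).

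Caprin1 (Entrez Gene 53872, chromosome 2, 103762945 to 103797669, minus strand) had 853 and 820 CPM in the Lv-Ntoco libraries, against 921 and 827 CPM in the Vector libraries. It had 645 and 583 CPM in sh-Ntoco, against 677 and 521 CPM in sh-Ctrl. The Lv-Ntoco and Vector libraries stood well above the shRNA libraries, and each Ntoco group overlapped its own control. Caprin1 had a log2 ratio of -0.06 (SE 0.19) for Lv-Ntoco against Vector, 0.04 (SE 0.19, 95% interval -0.41 to 0.48) for sh-Ntoco against sh-Ctrl and 0.54 (SE 0.19, 95% interval 0.10 to 0.99, adjusted p = 0.363 in edgeR) for Vector against sh-Ctrl. In CPM, all 4 Lv-Ntoco and Vector libraries lay above all 4 shRNA libraries for 2 of the 10 genes, G3bp1 and Caprin1. The same held for 3.32% of the genes tested (402 of 12115). In FPKM it held for 1 of the 10, Caprin1, and for 2.02% of the genes. This arrangement was noticed after the values were seen and is a description.

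Usp10, the ubiquitin peptidase that binds G3BP (Entrez Gene 22224, chromosome 8, 119910360 to 119957560, plus strand), had 139 and 143 CPM in the Lv-Ntoco libraries, against 199.5 and 214 CPM in the Vector libraries. It had 121 and 130 CPM in sh-Ntoco, against 166 and 138 CPM in sh-Ctrl. As with Atxn2 and Atxn2l, both Vector libraries were above the other 6, and Lv-Ntoco lay near the lower sh-Ctrl library. The share of all genes with Vector above the other 6 was not counted. Nothing is therefore read from that order, here or for other genes described as highest in Vector. Usp10 had a log2 ratio of -0.55 (SE 0.18) for Lv-Ntoco against Vector. It was -0.27 (SE 0.18, 95% interval -0.68 to 0.13, adjusted p = 0.992 in edgeR) for sh-Ntoco against sh-Ctrl and 0.44 (SE 0.18, 95% interval 0.04 to 0.85, adjusted p = 0.370 in edgeR) for Vector against sh-Ctrl.

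G3bp2, the second G3BP gene (Entrez Gene 23881, chromosome 5, 92052145 to 92137725, minus strand), had 167 and 191 CPM in the Lv-Ntoco libraries, against 197 and 156 CPM in the Vector libraries. It had 172 and 195 CPM in sh-Ntoco, against 168 and 148 CPM in sh-Ctrl. G3bp2 did not share the arrangement of G3bp1, since its Lv-Ntoco and Vector values overlapped those of both shRNA groups. G3bp2 had a log2 ratio of 0.02 (SE 0.20) for Lv-Ntoco against Vector, 0.21 (SE 0.20, 95% interval -0.24 to 0.67) for sh-Ntoco against sh-Ctrl and 0.16 (SE 0.20) for Vector against sh-Ctrl. Exons of G3bp2 overlap those of the noncoding gene Gm26582 on the other strand over 2050 bp, and without a stated strand setting of the counting their reads cannot be told apart.

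Tia1 and Tial1 encode related RNA-binding proteins that promote granule assembly and repress translation. Tia1 (Entrez Gene 21841, chromosome 6, 86404203 to 86433405, plus strand) had 37.7 and 34.0 CPM in the Lv-Ntoco libraries, against 38.4 and 48.5 CPM in the Vector libraries. It had 29.7 and 47.8 CPM in sh-Ntoco, against 31.6 and 43.1 CPM in sh-Ctrl. Both Lv-Ntoco values lay just below the Vector values in CPM but overlapped them in FPKM, and in Vector, sh-Ntoco and sh-Ctrl the gap within the group was larger than any difference between group means. Tia1 had a log2 ratio of -0.28 (SE 0.29) for Lv-Ntoco against Vector, 0.05 (SE 0.29, 95% interval -0.61 to 0.72) for sh-Ntoco against sh-Ctrl and 0.22 (SE 0.29) for Vector against sh-Ctrl.

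Tial1 (Entrez Gene 21843, chromosome 7, 128439772 to 128461726, minus strand) had 85.1 and 89.0 CPM in the Lv-Ntoco libraries, against 91.8 and 99.8 CPM in the Vector libraries. It had 71.7 and 81.0 CPM in sh-Ntoco, against 93.9 and 92.8 CPM in sh-Ctrl. In CPM the sh-Ntoco libraries were the lowest of the 8, and the 2 controls overlapped. In FPKM sh-Ntoco library 2, at 14.35, lay above Lv-Ntoco library 1, at 14.10. The log2 ratio was -0.29 (SE 0.17, 95% interval -0.69 to 0.11, adjusted p = 0.992 in edgeR) for sh-Ntoco against sh-Ctrl. It was -0.14 (SE 0.17) for Lv-Ntoco against Vector and 0.04 (SE 0.17) for Vector against sh-Ctrl.

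Pabpc1, which encodes the main cytoplasmic poly(A)-binding protein (Entrez Gene 18458, chromosome 15, 36595658 to 36609581, minus strand), had 2109 and 2031 CPM in the Lv-Ntoco libraries, against 1861 and 2190 CPM in the Vector libraries. It had 2202 and 1721 CPM in sh-Ntoco, against 2258 and 2113 CPM in sh-Ctrl. The 4 groups overlapped except for a narrow gap between Lv-Ntoco and sh-Ctrl, and the lowest value was that of sh-Ntoco library 2. Pabpc1 had a log2 ratio of 0.03 (SE 0.19) for Lv-Ntoco against Vector, -0.16 (SE 0.19, 95% interval -0.60 to 0.29) for sh-Ntoco against sh-Ctrl and -0.11 (SE 0.19) for Vector against sh-Ctrl.

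Ddx6 (Entrez Gene 13209, chromosome 9, 44602983 to 44640731, plus strand) had 134 and 193 CPM in the Lv-Ntoco libraries, against 299 and 154 CPM in the Vector libraries. It had 168 and 213 CPM in sh-Ntoco, against 156 and 147 CPM in sh-Ctrl. Vector library 1 stood apart from the other 7, and the gap between the Vector libraries was 0.95 on the log2 scale, against a median gap of 0.33 over all tested genes in that group. The log2 ratio was -0.47 (SE 0.33) for Lv-Ntoco against Vector and 0.58 (SE 0.33, adjusted p = 0.460 in edgeR) for Vector against sh-Ctrl. Without Vector library 1 these were 0.09 and 0.03, so both rested on that library. For sh-Ntoco against sh-Ctrl the log2 ratio was 0.33 (SE 0.33, 95% interval -0.43 to 1.09, adjusted p = 0.992 in edgeR).

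Over the 10 genes, both Lv-Ntoco libraries were below both Vector libraries for 6, namely Atxn2, Atxn2l, G3bp1, Usp10, Tia1 and Tial1, and above them for 0. Over all tested genes the shares were 23.1% lower and 24.1% higher. In FPKM the number was 4, without G3bp1 and Tia1, and 22.6% of all genes were lower. The median log2 ratio of the 10 genes was -0.21, against -0.01 over all genes, and since this comparison chose Atxn2 and Atxn2l nothing is read from it. The libraries of sh-Ntoco and sh-Ctrl did not enter the ratio that chose Atxn2 and Atxn2l. In sh-Ntoco against sh-Ctrl, edgeR's quasi-likelihood test called 0 of the 10 genes at an adjusted p under 0.05, and 0% of all genes. At an unadjusted p under 0.05 it called 0 of the 10 and 378 of 12115 genes, and DESeq2 called 0 of the 10 and 15 of all genes. Both sh-Ntoco libraries were below both sh-Ctrl libraries for 3 genes, Atxn2l, Usp10 and Tial1 (14.1% of all genes), and above them for 2, G3bp2 and Ddx6 (15.1% of all genes). In FPKM 2 were lower, without Atxn2l, and the same 2 higher. The median log2 ratio was -0.08, against 0.01 over all genes. A lack of calls does not show equal levels, and the intervals given with the genes state what these libraries allow.

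In the comparison of Vector with sh-Ctrl, edgeR called 0 of the 10 genes at an adjusted p under 0.05, as it did 0% of all genes, and DESeq2 called 0 of the 10 and 281 of all genes. At an unadjusted p under 0.05 edgeR gave 3 of the 10, Atxn2, Caprin1 and Usp10, and 1520 of 12115 genes. Both Vector libraries exceeded both sh-Ctrl libraries for 5 genes, Atxn2, Atxn2l, G3bp1, Caprin1 and Usp10 (24.6% of all genes), and lay below them for 0 (26.5% of all genes). In FPKM the same 5 were higher and 1, Pabpc1, was lower, against 20.8% and 30.3% of all genes. The median log2 ratio of the 10 genes was 0.37, against 0.00 over all genes. This comparison and that of Lv-Ntoco with Vector, which chose Atxn2 and Atxn2l, share the Vector libraries. The p-values of Atxn2 and Atxn2l, and the counts and median that include them, are therefore not independent of that choice. Construct and any other property that separates the Vector from the sh-Ctrl cells cannot be told apart.

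**Figure D4:**
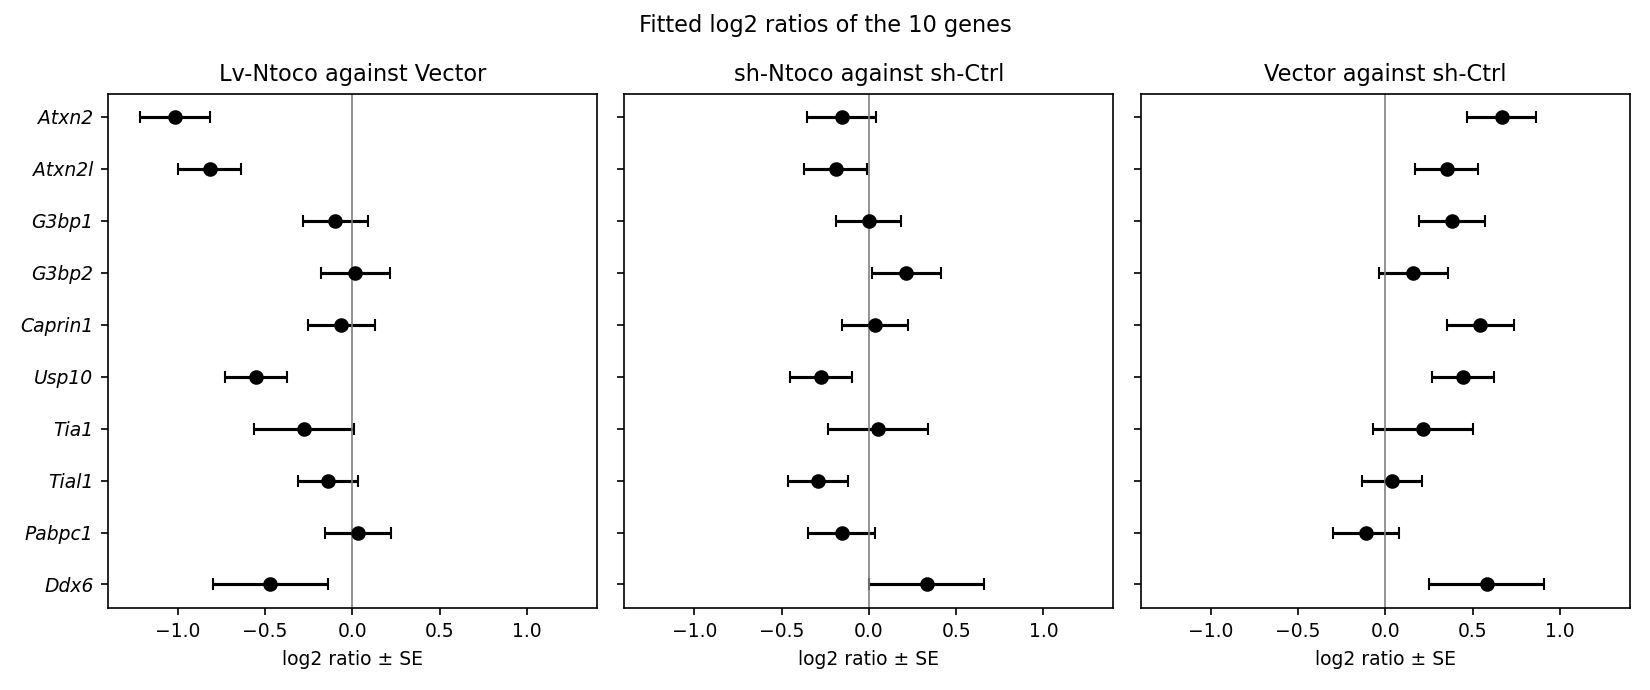
Fitted log2 ratios (points) with their standard errors (bars) for the 10 genes in the 3 comparisons, Lv-Ntoco against Vector, sh-Ntoco against sh-Ctrl and Vector against sh-Ctrl. Atxn2 and Atxn2l lie at -1.02 and -0.82 in the first panel, within 0.20 of 0 in the second and at 0.67 and 0.35 in the third.

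Markers of other cell types varied between these groups, given here as CPM summed over all listed rows. Fibroblast and meningeal markers (6 of 9 tested, Lum at 0 throughout) summed to 3110 and 2960 CPM in Lv-Ntoco and 2606 and 3583 CPM in Vector, and to 6530 and 2337 CPM in sh-Ntoco and 4550 and 4794 CPM in sh-Ctrl. Both Vector sums were below both sh-Ctrl sums, while the Lv-Ntoco sums lay within those of Vector. Astrocyte markers (4 of 7 tested) summed to 8.40 and 30.8 CPM in Vector, against 45.5 and 42.9 CPM in sh-Ctrl. Microglial and macrophage markers (4 of 8 tested, Ptprc at 0 throughout) summed to 12.1 and 11.5 CPM in Lv-Ntoco and 13.5 and 14.9 CPM in Vector, and to 15.1 and 16.1 CPM in sh-Ntoco and 19.0 and 18.8 CPM in sh-Ctrl. Neuronal markers summed to 19.6 and 29.3 CPM in Vector, against 44.1 and 43.0 CPM in sh-Ctrl. The sums of Vector were thus below those of sh-Ctrl in both libraries for each of these 4 lists, and those of Lv-Ntoco below Vector for the microglial list. High genes weigh most in a sum, as Camk2a with 348 to 825 counts beside Dlg4 with 9 to 19. Against sh-Ctrl, Vector was lower without overlap for 1 of 2 neuronal, 2 of 4 astrocyte, 2 of 4 microglial and 3 of 6 fibroblast genes tested. At the shares of all genes these would be 0.531, 1.06, 1.06 and 1.59. Against Vector, Lv-Ntoco was lower for 1 and higher for 2 of the 4 microglial genes (0.925 and 0.964 at those shares). Over the 8 libraries the sums were 4.07 to 12.1 CPM for endothelium and pericytes (3 of 8 tested) and 151 to 416 CPM for the oligodendrocyte lineage (3 of 8 tested). The part of these markers in the results on the 10 genes was not tested.

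The lists of related genes were chosen with earlier results of these data known, and for Lv-Ntoco against Vector they are described without a test. In sh-Ntoco against sh-Ctrl and in Vector against sh-Ctrl, edgeR called 0 genes of any list at an adjusted p under 0.05. Beside each count of genes whose groups did not overlap stands, as the background, the number that a list of that size would hold at the shares of all tested genes. Where leaving out a library moved a median beyond the spread, the value farthest from it is given with the library left out.

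Of 28 further stress granule factors, all tested, 12 were lower and 4 higher in both Lv-Ntoco libraries than in both Vector libraries, against backgrounds of 6.48 and 6.75, with a median log2 ratio of -0.25 (-0.13 without Vector library 1). In sh-Ntoco against sh-Ctrl 5 were lower and 1 higher (backgrounds 3.96 and 4.22, median -0.02, or -0.13 without sh-Ntoco library 2), and in Vector against sh-Ctrl 5 were lower and 8 higher (backgrounds 7.43 and 6.88, median 0.09, or 0.20 without Vector library 2). Zc3hav1, an antiviral zinc finger protein, had 238 and 268 CPM in Lv-Ntoco, against 448 and 592 CPM in Vector, and 184.6 and 287 CPM in sh-Ctrl. Its log2 ratio was -1.04 (SE 0.28) for Lv-Ntoco against Vector and 1.14 (SE 0.28, adjusted p = 0.337 in edgeR) for Vector against sh-Ctrl. Taf15, an RNA-binding protein, had 101 and 114 CPM in Lv-Ntoco, against 228 and 221 CPM in Vector, and 104 and 149 CPM in sh-Ctrl. In sh-Ntoco, Zc3hav1 had 233 and 317 CPM and Taf15 had 88.1 and 209 CPM. Both genes were highest in Vector, as was Atxn2, but for Taf15 sh-Ntoco library 2 came close to the Vector values. In the knockdown comparison the largest ratios without overlap were those of Prrc2b (-0.46, SE 0.28) and Ybx3 (-0.43, SE 0.21), each with an adjusted p of 0.992 in edgeR.

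Of 13 P-body and decapping factors, 12 were tested. In Lv-Ntoco against Vector 3 were lower and 2 higher (backgrounds 2.78 and 2.89), with a median log2 ratio of -0.14, or -0.0038 without Vector library 1. For sh-Ntoco against sh-Ctrl 3 were lower and 4 higher (backgrounds 1.7 and 1.81), with a median of 0.02 that ran from -0.09 to 0.16 as single libraries were left out. In Vector against sh-Ctrl 3 were lower and 4 higher (backgrounds 3.18 and 2.95), with a median of 0.18, or 0.0067 without Vector library 1. The counts were near the background in the comparisons with Vector, and above it in both directions in sh-Ntoco against sh-Ctrl. The medians rested on single libraries. Dcp1a, a cofactor of the decapping enzyme, had 34.4 and 42.4 CPM in Lv-Ntoco, against 76.6 and 66.9 CPM in Vector. It had 35.1 and 57.0 CPM in sh-Ntoco, against 46.5 and 43.2 CPM in sh-Ctrl. Dcp1a was thus also highest in Vector, with a log2 ratio of 0.68 (SE 0.26, adjusted p = 0.370 in edgeR) against sh-Ctrl. Lsm14b, an RNA-binding P-body protein, went the other way in the controls, with 40.5 and 41.7 CPM in Vector, against 68.0 and 79.8 CPM in sh-Ctrl (log2 ratio -0.85, SE 0.20, adjusted p = 0.337 in edgeR). In Lv-Ntoco Lsm14b had 43.6 and 49.0 CPM, above both Vector values.

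Of 32 partners of the poly(A)-binding protein and deadenylase subunits, all tested, 13 were lower and 5 higher in Lv-Ntoco than in Vector without overlap (backgrounds 7.4 and 7.71), with a median log2 ratio of -0.16, or -0.0019 without Vector library 1. In sh-Ntoco against sh-Ctrl 6 were lower and 1 higher (backgrounds 4.52 and 4.83, median 0.02), and in Vector against sh-Ctrl 3 were lower and 15 higher (backgrounds 8.49 and 7.87, median 0.19, or 0.32 without Vector library 2). Pan2 and Pan3 form a deadenylase that is recruited by the poly(A)-binding protein. Pan3 had 14.9 and 30.3 CPM in Lv-Ntoco, against 52.0 and 44.0 CPM in Vector (log2 ratio -1.09, SE 0.38), and Pan2 had 24.6 and 25.3 CPM, against 45.1 and 55.1 CPM (log2 ratio -1.01, SE 0.40). In the controls, Tob2, which links deadenylases to the poly(A)-binding protein, had a log2 ratio of 0.83 (SE 0.27, adjusted p = 0.354 in edgeR). In the knockdown comparison the initiation factor Eif4g1 had one of -0.36 (SE 0.19) and Lsm12, a partner of ataxin-2 in the fly, one of -0.33 (SE 0.21), each with an adjusted p of 0.992 in edgeR.

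The integrated stress response, which acts through eIF2alpha, was covered by 23 genes, all tested. In Lv-Ntoco against Vector 7 were lower and 7 higher without overlap (backgrounds 5.32 and 5.54), with a median log2 ratio of -0.03, or 0.15 without Vector library 1 and -0.18 without Lv-Ntoco library 1. In sh-Ntoco against sh-Ctrl 3 were lower and 3 higher (backgrounds 3.25 and 3.47), with a median of -0.02 that ran from -0.08 to 0.06 as single libraries were left out. In Vector against sh-Ctrl 6 were lower and 10 higher (backgrounds 6.1 and 5.65), with a median of 0.18, or 0.31 without Vector library 2. Eif2ak2, the eIF2alpha kinase activated by double-stranded RNA, had 75.6 and 346 CPM in Lv-Ntoco, against 402 and 444 CPM in Vector. It had 104 and 93.5 CPM in sh-Ntoco, against 71.5 and 62.1 CPM in sh-Ctrl. Lv-Ntoco library 1 was at the level of the shRNA groups and library 2 close to Vector, so the group mean describes neither. For Vector against sh-Ctrl the log2 ratio of Eif2ak2 was 2.66 (SE 0.59, adjusted p = 0.337 in edgeR). Ddit3, a stress-induced transcription factor, had 85.5 and 215 CPM in sh-Ntoco, against 39.4 and 64.4 CPM in sh-Ctrl (log2 ratio 1.53, SE 0.44, adjusted p = 0.992 in edgeR). Chac1, which degrades glutathione and is induced in the same response, had 75.5 and 82.3 CPM, against 32.0 and 52.6 CPM (log2 ratio 0.90, SE 0.40, adjusted p = 0.992 in edgeR). The Vector libraries were also above sh-Ctrl for both genes, with 133 and 100.4 CPM of Ddit3 and 136 and 93.1 CPM of Chac1 (log2 ratio 1.44 against sh-Ctrl for Chac1, SE 0.40, adjusted p = 0.337 in edgeR).

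A further list held 12 other genes, all named ataxin except Cacna1a, Ppp2r2b and Tbp, and 11 of the 12 were tested. In Lv-Ntoco against Vector 5 were lower and 1 higher (backgrounds 2.54 and 2.65, median log2 ratio -0.12, or -0.19 without Vector library 2). In sh-Ntoco against sh-Ctrl 1 was lower and 2 higher (backgrounds 1.55 and 1.66, median 0.00, or 0.14 without sh-Ntoco library 1), and in Vector against sh-Ctrl 3 were lower and 4 higher (backgrounds 2.92 and 2.7, median 0.13). Most of the encoded proteins are unrelated to ataxin-2. Atxn7, a subunit of the transcriptional coactivator SAGA, had 22.6 and 21.9 CPM in Lv-Ntoco, against 39.2 and 37.9 CPM in Vector, and Atxn1, a transcriptional corepressor, had 15.7 and 19.3 CPM, against 25.8 and 30.7 CPM. Atxn7l3, also of SAGA, had 57.0 and 48.6 CPM in Vector, against 82.3 and 96.4 CPM in sh-Ctrl (log2 ratio -0.76, SE 0.19, adjusted p = 0.337 in edgeR).

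Among the 9196 tested genes with a mean of at least 10 CPM, those whose log2 CPM followed Atxn2 most closely over the 8 libraries were Taf1c (Pearson's r 0.97), Ccnd2 (0.96), Zfp142 (0.96), Opa3 (0.96) and Dcp1a (0.95). For Atxn2l they were Sntb2 (0.96), Zfp592 (0.95), Proser1 (0.95), Cnst (0.94) and Ep300 (0.94). These values describe likeness over libraries that share their groups, with the Vector libraries high in each, and carry no test. Taf1c, for example, had 15.4 and 17.9 CPM in Lv-Ntoco and 27.8 and 30.1 CPM in Vector. Ep300, a histone acetyltransferase gene, had 41.3 and 62.2 CPM in Lv-Ntoco and 108 and 98.9 CPM in Vector.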

How the data were processed

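RNA of HT22 cells was extracted with TRIzol and sequenced from stranded poly(A)-selected libraries, per the labels' protocols. The authors deposited whole-number read counts per gene and FPKM values, which are those counts divided by gene length and library size. Trimmomatic, HISAT2, Cufflinks, HTSeq, DESeq and the build mm10 are named in the submitters' processing notes. Their versions and roles, the annotation and the strand setting are not stated there. The name of each column (control or targeting shRNA, vector or overexpression) gave its group, and 0 columns were left without a sample. The columns of both Ntoco groups say AK and not Ntoco, and the labels do not explain AK. Their link to Ntoco was thus inferred from these roles.

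From the counts, genes were filtered with filterByExpr (minimum count 10), scaled with TMM factors (0.955 to 1.05) and tested with edgeR's quasi-likelihood test over all 4 groups in 1 model (4 residual and 3.85 prior degrees of freedom, biological coefficient of variation 28%). The Benjamini-Hochberg adjustment ran over 12115 genes with a threshold of 0.05, and log2 ratios use a prior count of 0.125. With 2 libraries a group an exact permutation test could not give a two-sided p below 0.333. The members' counts were 567 to 43108 per library, so the spread between libraries, not counting error, sets their precision. Likeness used log2 CPM with a prior count of 1.

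Named genes were the 10 members, the 5 genes most correlated with Atxn2 and with Atxn2l, and in each list the 2 genes with the largest ratio per comparison among those with a mean of at least 10 CPM and groups that do not overlap; not every list gene so named is printed. The members and lists were chosen with earlier results of these data known. Alternatives were RLE factors, no filter, DESeq2, limma on log2(FPKM + 1), 2-group fits, a replicate block and leaving out each library; counting non-overlap in FPKM was added after seeing the data. The scripts were tested on simulated data. Coordinates are from RefSeq (GRCm38.p6), to which 10 of 10 members matched by Entrez Gene identifier, and overlaps are from GENCODE on the same build. Versions were edgeR 4.0.16, DESeq2 1.42.0 and limma 3.58.1 in R 4.3.3, with Python 3.11.15.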

Additional observations from a re-analysis of the deposited data

How the results depend on the processing

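No alternative called any of the 10 genes in sh-Ntoco against sh-Ctrl or in Vector against sh-Ctrl; the lowest adjusted p over them was 0.137, for Atxn2 with DESeq2 in Vector against sh-Ctrl. In sh-Ntoco against sh-Ctrl the log2 ratio of G3bp1, -0.0015, was 0.0041 with RLE factors, 0.0035 with DESeq2, 0.037 with limma on FPKM, 0.0024 with a replicate block and 0.0045 in a fit of the 2 compared groups. Tial1 in Vector against sh-Ctrl was -0.024 with limma on FPKM. Leaving out each library in turn gave ranges that crossed 0 in sh-Ntoco against sh-Ctrl for G3bp1 (-0.18 to 0.20), Caprin1 (-0.15 to 0.24), Tia1 (-0.33 to 0.35) and Pabpc1 (-0.35 to 0.010), and in Vector against sh-Ctrl for G3bp2 (-0.019 to 0.32), Tial1 (-0.024 to 0.095) and Pabpc1 (-0.23 to 0.0010). With 1 library left out, Atxn2 ran from -1.14 to -0.90 for Lv-Ntoco against Vector and from 0.57 to 0.75 for Vector against sh-Ctrl. Atxn2l ran from -0.88 to -0.76 and from 0.20 to 0.51. Both genes were chosen by Lv-Ntoco against Vector, and in both comparisons their groups did not overlap. Leaving out a library could thus hardly turn these directions, and nothing is read from their staying the same. In sh-Ntoco against sh-Ctrl Atxn2 ran from -0.33 to -0.0096 and Atxn2l from -0.34 to -0.03, so their size there depended on single libraries. The number of the 10 genes with both Lv-Ntoco libraries below both Vector libraries was 6 in the fit as reported, 4 with limma on FPKM, 5 with no filter, 5 with DESeq2, and 7 to 9 with 1 library left out, since fewer values must then be separated. List genes past the threshold in Lv-Ntoco against Vector, a comparison read only as a description, numbered 0 to 1 with a library left out; the 1 was Eif2ak2 without Lv-Ntoco library 2 (log2 ratio -2.48), where the remaining Lv-Ntoco library is assumed to vary like the other groups.

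Over all genes edgeR called 0 in each of the 3 comparisons. DESeq2 called 15 in sh-Ntoco against sh-Ctrl, 281 in Vector against sh-Ctrl and 1 in Lv-Ntoco against Vector, no filter gave 3 in Vector against sh-Ctrl, the fits of 2 groups gave 128 in Vector against sh-Ctrl and 1 in Lv-Ntoco against Vector, and leaving out a library gave at most 1 in the first, 0 in the second and 25 in the third. The library numbers were not used as a pairing, since the labels give none and 2 libraries a group cannot settle it: deviations from the group means of same-numbered libraries correlated at 0.36 for sh-Ntoco and sh-Ctrl, -0.12 for Vector and sh-Ctrl and -0.21 for Lv-Ntoco and Vector. With the replicate block, 0 of the 10 genes and 0 of all genes were called. A crossed pairing, added after the data were seen, gave 1 gene in Vector against sh-Ctrl and 0 in Lv-Ntoco against Vector, with 0 of the 10 genes in the first. With 2 libraries a group, the interval of each of the 10 genes in sh-Ntoco against sh-Ctrl included 0. Their reach differed by gene, from -0.69 to 0.11 for Tial1 and from -0.43 to 1.09 for Ddx6. In Vector against sh-Ctrl the intervals lay above 0 for Atxn2 (0.21 to 1.12), Caprin1 (0.10 to 0.99) and Usp10 (0.04 to 0.85). For the other genes they included 0. None of the 10 genes passed the adjusted threshold there, and Atxn2 was chosen with the Vector libraries.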
